A study of Mus musculus with 3 samples.

Results

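Monocytes leave the blood and enter inflamed tissue mainly by following CC chemokines, small secreted proteins named for a pair of adjacent cysteines, that bind the receptor CCR2. Ccl2, Ccl7 and Ccl12 encode mouse ligands of CCR2. Ccl8 encodes a related monocyte chemoattractant, and Ccl11 encodes eotaxin, which attracts eosinophils through another receptor, CCR3. Macrophages and connective tissue cells make these chemokines during inflammation. The 6 genes described here are Ccl2, Ccl7, Ccl8, Ccl11, Ccl12 and the receptor gene Ccr2. They were taken by name from the arrays, and 7 of 41174 probes belong to them. They were chosen by name after their differences between these same 3 arrays had been seen, that is, selected on the log2 differences given below, so the values are descriptions and carry no test.

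The RNA came from macrophages washed from the peritoneum of male Swiss albino mice, 8 weeks old, and was read on 3 arrays that use 1 dye. Every group had received 125 µg lipopolysaccharide, a bacterial cell wall component, into the peritoneum on day 0 to bring macrophages there. On day 4 the control mice were given 100 ng of the phorbol ester TPA, an activator of protein kinase C. The chromate groups were given the same TPA together with 35 or 70 nmol of potassium dichromate, called Cr(VI) in the sample labels. Cells were collected by lavage 4 days later from groups of 10 animals. No array analysed here carries RNA of mice given lipoic acid, which the series title names. There was 1 array for each of the 3 groups, and the labels do not say whether its RNA came from 1 animal or from several. No test between groups was possible, and precision is limited by having so few arrays. Whether a gene was transcribed more per cell or by more cells cannot be told apart in such bulk RNA.

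A level below is the log2 processed signal of a probe minus the 75th percentile of its array, so 0 is the 75th percentile, and it can be compared between arrays for 1 probe but not between probes. A difference is a log2 level minus that of another array. For the 6 genes, differences between measured levels are given with the scanner software's own error (±), which leaves out the spread between animals. That error had a median of 0.205 over all measured genes in each comparison. A probe was seen when the software flagged it well above background. The control array had 20200 such probes (49.1%), the 35 nmol array 18907 (45.9%) and the 70 nmol array 18564 (45.1%).

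The 5 chemokine genes stand together on chromosome 11. In the positions of the array design on build mm8, their probes span 79518 bases, from 81853343 to 81932860, and the RefSeq gene order is Ccl2, Ccl7, Ccl11, Ccl12, Ccl8 and then Ccl1. Ccr2 lies on chromosome 9 next to the receptor gene Ccr3, with its probe from 123957008 to 123957067. RefSeq promoter windows were matched for 3 of the 6 genes (Ccl8, Ccl12 and Ccr2). The upstream 250 bases of Ccl8 (GRCm38.p6, plus strand, chr11:82114935-82115184) and of Ccl12 (plus strand, chr11:82101595-82101844) are shown because these 2 neighbours had the highest printed folds at 70 nmol, although that of Ccl12, like that of Ccl7, is a lower bound. Capitals mark every match to a TATA box (TATAAA), a core of the myeloid factor PU.1 (GAGGAA) or a shorter NF-kB-like motif (GGAANNTCC), on either strand.
Ccl8: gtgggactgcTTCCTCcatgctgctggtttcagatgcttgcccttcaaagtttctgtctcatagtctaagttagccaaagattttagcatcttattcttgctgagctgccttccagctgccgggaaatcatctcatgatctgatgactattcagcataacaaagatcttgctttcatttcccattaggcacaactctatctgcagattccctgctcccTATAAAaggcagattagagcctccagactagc
Ccl12: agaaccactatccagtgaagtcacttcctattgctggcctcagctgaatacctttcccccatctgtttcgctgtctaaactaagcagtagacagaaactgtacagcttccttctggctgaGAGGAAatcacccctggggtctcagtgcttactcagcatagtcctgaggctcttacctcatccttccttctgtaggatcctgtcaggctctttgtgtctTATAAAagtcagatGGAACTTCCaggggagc
Both promoters hold TATAAA shortly before the start, at bases -32 to -27 in Ccl8 and -31 to -26 in Ccl12, counted back from the transcription start. A TATAAA on either strand was found in 12.4% of 32851 RefSeq promoter windows of this length. GAGGAA was found in both, at -240 to -235 in Ccl8 (on the opposite strand) and -130 to -125 in Ccl12, and in 23.3% of all windows. GGAANNTCC, a motif added after the Ccl12 sequence had been read, occurred in Ccl12 at -17 to -9 and in 3.59% of all windows, and not in the Ccl8 window. Neither window held the TPA-responsive element TGANTCA (6.75% of all windows), the longer NF-kB motif (17.6%), the gamma-activated STAT site TTCNNNGAA (7.02%) or the interferon-stimulated response element (2.98%). A match or its lack describes these letters only. Aligned end to end, the promoters of Ccl8 and Ccl12 were identical at 145 of 234 aligned bases (62.0%), against 54.8% for Ccl8 with Ccr2. The longest runs that they shared were 8 bases, and there were 3 of them. These were ggaaatca (from -128 in both), tcagcata (from -100 in Ccl8 and -98 in Ccl12) and tataaaag, which holds the TATA box. The longest run shared by Ccl8 and Ccr2 was likewise 8 bases, and that shared by Ccl12 and Ccr2 was 7 bases. None of the motifs named above lay in the Ccr2 window.

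Transcripts of 4 of the 5 chemokines were at least 2-fold higher at 70 nmol of chromate than in the control, and Ccr2 was 1.69-fold higher. Ccl12 was at least 10.6-fold higher, Ccl8 5.99-fold, Ccl7 at least 4.03-fold and Ccl2 3.39-fold. For Ccl12 and Ccl7 the fold is a bound, since neither was well above background on the control array. The bound sets the brighter level against the higher of the probe's own level and the lowest level well above background on the control array (-3.65). Ccl11 stayed too close to background on all 3 arrays to be seen. At 70 nmol, 1.63% of the 12541 genes measured on both arrays were at least 2-fold higher. With bounds included the share was 2.27% of 14162 genes. None of the 6 genes was at least 2-fold lower in any comparison, where 1.08% of all measured genes were at 70 nmol, 0.299% at 35 nmol and 0.718% between the doses. When arrays were scaled on spike-in RNA in place of the 75th percentile, the median gene shifted by -0.36 (70 nmol) and -0.42 (35 nmol). Under that scaling, 17.7% of all 2-fold calls at 70 nmol were higher ones, against 60.0%, and at 35 nmol 21.8%, against 79.0%. The bounds for Ccl12 and Ccl7 (3.41 and 2.01 on the log2 scale) hold under the 75th percentile scaling only. With spike-in scaling their differences from the dim control signal were 3.13 and 1.85, and with normexp background correction 1.78 and 0.53.

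**Figure D1:**
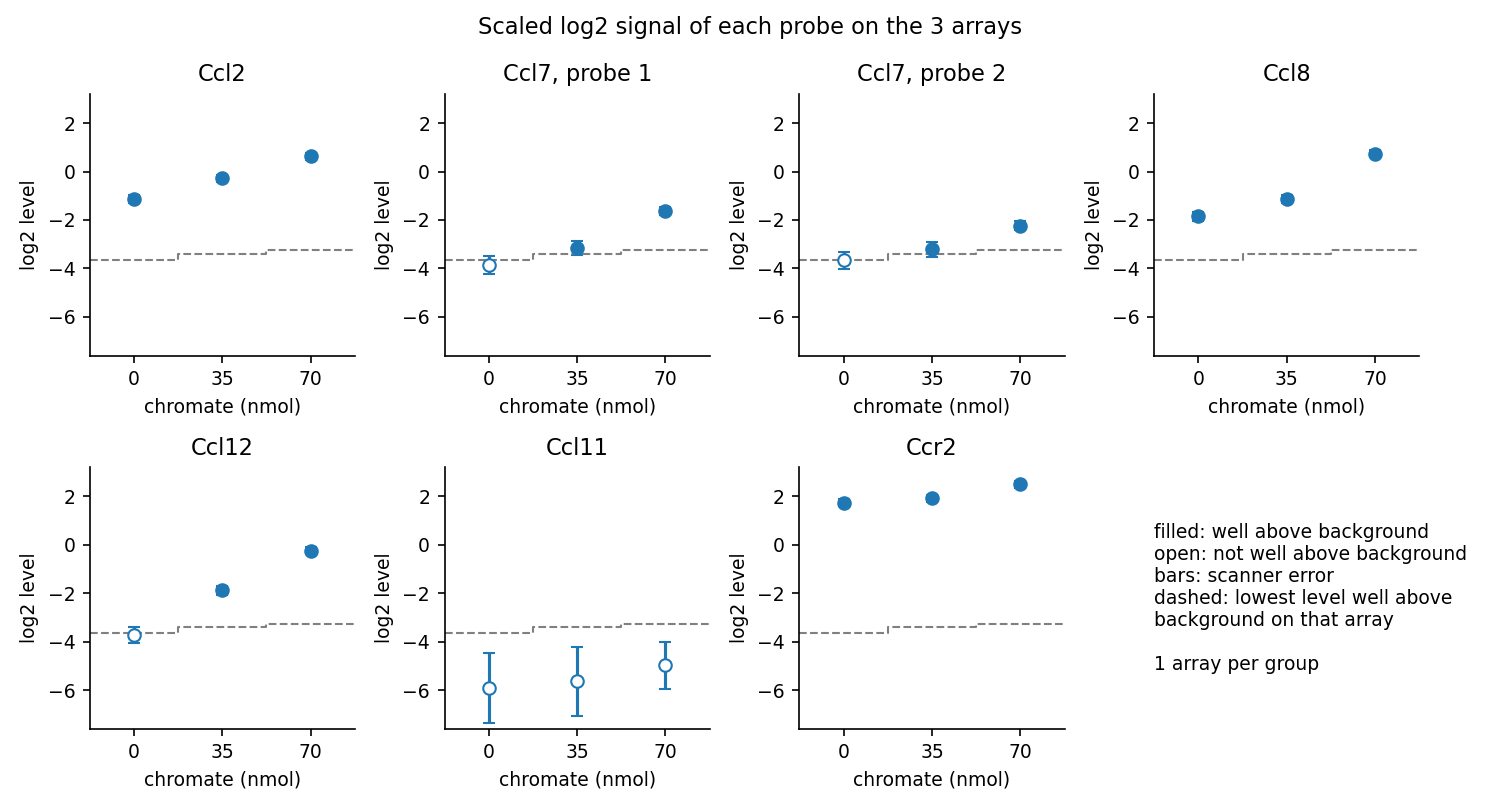
Scaled log2 signal of each of the 7 probes (vertical axis) against the chromate dose in nmol (horizontal axis), 1 array per dose, with the scanner software's error as bars. Open circles were not well above background and the dashed line is the lowest level that the software so flagged on each array; Ccl7 and Ccl12 lie at that line in the control, and Ccl11 lies below it throughout.

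Ccl2, also called monocyte chemoattractant protein 1, is the main ligand of CCR2. Its level was -1.14 in the control, -0.28 at 35 nmol and 0.62 at 70 nmol. The step from control to 35 nmol was 0.85 ± 0.21 and that from 35 to 70 nmol 0.91 ± 0.21, or 0.43 and 0.97 with spike-in scaling. The whole difference was 1.76 ± 0.21. Its probe was printed 10 times on each array, so the spread between spots can be given. In the control the spots ran from -1.29 to -0.77 with a median of -1.15. They ran from -0.38 to -0.15 with a median of -0.28 at 35 nmol. At 70 nmol 9 spots, after 1 was left out as an outlier, ran from 0.53 to 0.69 with a median of 0.62. In these levels the spots of the 3 arrays did not overlap. Each step was larger than the standard deviation between spots (0.14, 0.070 and 0.044, in order of dose). Spike-in scaling moves the 35 nmol array by -0.42 against the control. That exceeds the gap between the highest control spot (-0.77) and the lowest at 35 nmol (-0.38), so these spots would then overlap. The order of the means was the same before any scaling, with mean processed signals of 123, 169 and 331. The highest unscaled control spot (157.7) lay just under the lowest at 35 nmol (158.0). Repeated spots measure 1 labelled RNA several times and say nothing about the spread between animals.

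**Figure D2:**
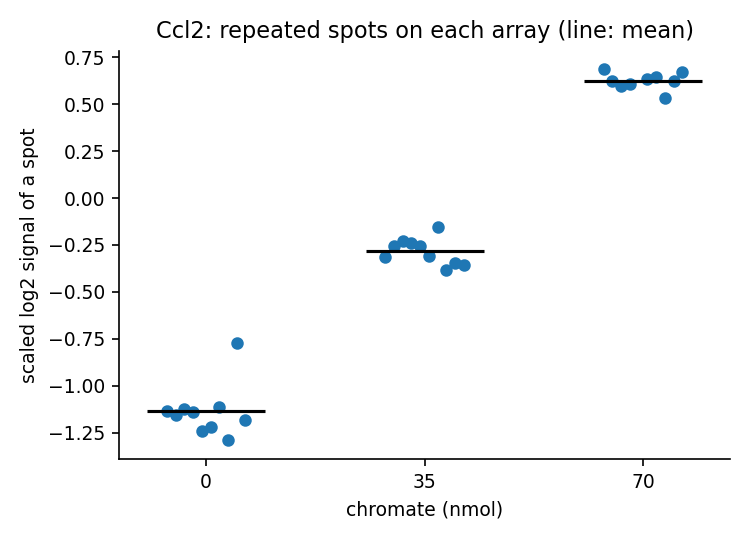
Scaled log2 signal of each repeated spot of the Ccl2 probe (vertical axis) by chromate dose in nmol (horizontal axis); lines are the means of 10, 10 and 9 spots on 1 array each. The highest control spot (-0.77) lies below the lowest spot at 35 nmol (-0.38), and the highest of these (-0.15) below the lowest at 70 nmol (0.53). With spike-in scaling the control and 35 nmol spots would overlap.

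Ccl8, known as MCP-2, had the larger part of its difference between the doses. Its level was -1.86 in the control, -1.14 at 35 nmol and 0.73 at 70 nmol. The difference was 0.72 ± 0.23 at 35 nmol and 2.58 ± 0.22 at 70 nmol, with 1.86 ± 0.21 between the doses. Ranked from the highest difference, Ccl8 was number 10 of 12541 genes at 70 nmol against the control, where Ccl2 was number 33. Between the doses Ccl8 was number 10 of 12387 genes and Ccl2 number 155.

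Ccl12, known as MCP-5, was seen at both chromate doses but not in the control. Its level was -3.73 in the control, just under the lowest level well above background there, -1.89 at 35 nmol and -0.24 at 70 nmol. It was therefore at least 3.38-fold higher at 35 nmol and at least 10.6-fold higher at 70 nmol. Between the doses, where both arrays measured it, the difference was 1.65 ± 0.23, number 18 of 12387 genes. Of 312 genes seen at 70 nmol and not in the control, 117 (37.5%) had a bound of at least 2-fold, Ccl12 and Ccl7 among them. At 35 nmol these were 129 of 341 (37.8%), and Ccl12 but not Ccl7 was among them.

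Ccl7, known as MCP-3, was the only gene of the group with 2 probes. The brighter probe, from 81863349 to 81863408, lay at -3.85 in the control, -3.16 at 35 nmol and -1.64 at 70 nmol. The other, from 81863197 to 81863256, lay at -3.67, -3.21 and -2.23. Neither was well above background in the control, and at 35 nmol both lay within 0.24 of the lowest level so flagged (-3.40). At 70 nmol the bounds were 4.03-fold and 2.67-fold. At 35 nmol they were 1.40-fold and 1.35-fold, or 0.48 and 0.43 on the log2 scale, about the size of the scanner errors there (0.47 and 0.46). Between the doses the probes gave 1.53 ± 0.34 and 0.98 ± 0.37, so both were higher at 70 nmol. These values stand farther apart than is usual for 2 probes of a gene on these arrays (median SD 0.090, 3056 genes), but their error ranges overlap. Both errors also exceed the median over all measured genes (0.205). A 2-fold limit thus passes between the brighter Ccl7 probe (1.53) on one side and the other Ccl7 probe (0.98) and Ccl2 (0.91) on the other.

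Ccl11 gave processed signals of 4.47, 4.13 and 6.82 at 0, 35 and 70 nmol, and its scanner error was 0.96 or more on the log2 scale on every array. No fold is given for it, because none of these signals could be told from background. It lies between Ccl7 and Ccl12 in the gene order. The other gene next to the group, Ccl1, was likewise not well above background on any array.

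Ccr2, which sits on monocytes and brings them into tissue, had a level of 1.74 in the control, 1.92 at 35 nmol and 2.50 at 70 nmol. The 35 nmol difference (0.18 ± 0.20) was within the scanner error, and with spike-in scaling its sign turned (-0.24). The difference of 0.76 ± 0.20 at 70 nmol exceeded that error, and 5.55% of all genes were at least 1.5-fold higher there. Between the doses it was 0.58 ± 0.20. Its processed signals before scaling were 901, 781 and 1216.

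At 35 nmol none of the 3 genes measured on both arrays (Ccl2, Ccl8 and Ccr2) was 2-fold higher, and Ccl12 alone passed as a bound, where 1.12% of 12730 genes were at least 2-fold higher and 1.92% with bounds included. Ccl2 (1.81-fold) and Ccl8 (1.65-fold) were at least 1.5-fold higher, as were 2.96% of all genes. With spike-in scaling both fell short of it (log2 differences of 0.43 for Ccl2 and 0.30 for Ccl8), and with normexp background correction Ccl8 did (0.47). Between the doses 5 of the 6 genes were measured, and 3 of them (Ccl8, Ccl12 and Ccl7) were at least 2-fold higher at 70 nmol, against 0.92% of 12387 genes. Their median difference there was 1.53, and that of all genes 0.0016. The 3 genes measured on all arrays were ordered control, 35 and 70 nmol, as were 25.7% of the 12326 genes so measured. Ccl2 and Ccl8 were among 22 genes (0.18%) with 2 successive steps of at least 1.5-fold. Under those same alternatives the first step is smaller than that, for both genes with spike-in scaling and for Ccl8 with normexp. Both comparisons with TPA alone use the same control array, so an error of that array would enter both.

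**Figure D3:**
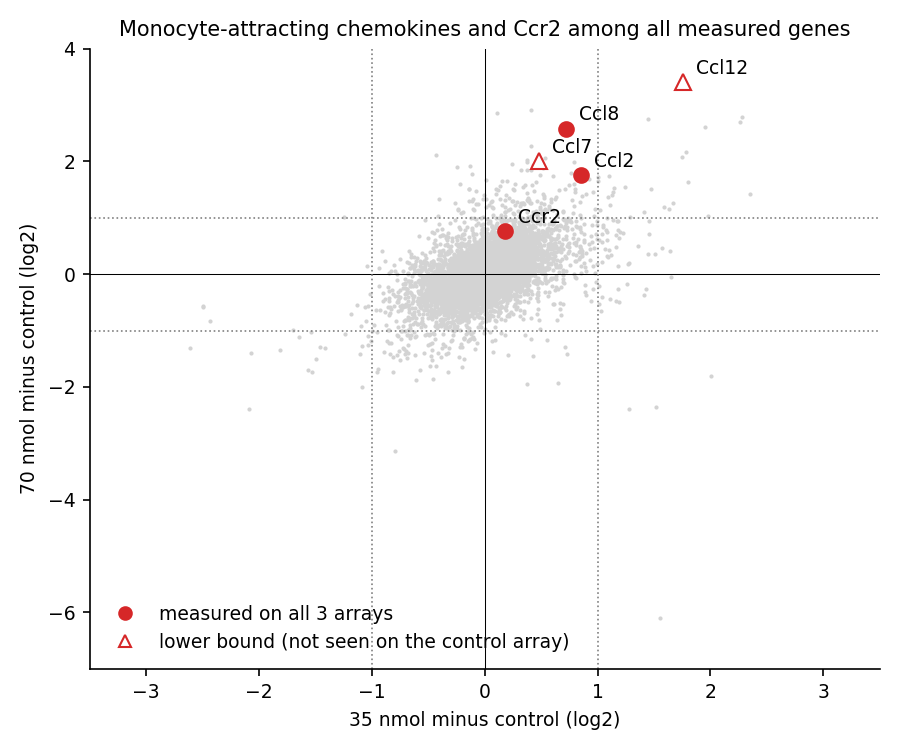
Difference from the control at 35 nmol (horizontal axis, log2) and at 70 nmol (vertical axis, log2) for all 12326 genes measured on 3 arrays (grey) and the named genes (red); dotted lines mark 2-fold. Triangles for Ccl7 and Ccl12 are lower bounds; Ccl8 lies at 0.72 and 2.58, Ccl2 at 0.85 and 1.76, and Ccr2 at 0.18 and 0.76.

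The genes seen around the group on chromosome 11 did not show such differences, but none of them was next to it. The nearest, Cct6b, had its probe from 82535565. Between it and Ccl8, the genes Ccl1 and Tmem132e were not well above background on any array, nor was Asic2 on the other side. Within 1000000 bases of the chemokine probes on either side, 12 other genes were seen, all on the Ccl8 side, and none differed 2-fold in any comparison. Their median difference at 70 nmol was 0.14, with Slfn5, an interferon-induced schlafen gene, at 0.74 and Slfn2 at 0.56. A second cluster of CC chemokine genes, farther along chromosome 11, gave mixed values at 70 nmol. Ccl4, a macrophage inflammatory protein, differed by 1.52, Ccl9 by 0.49 and Ccl5 by 0.016. Ccl6 was measured at 35 nmol (0.40) but was saturated at 70 nmol, and Ccl3 was not well above background. Next to Ccr2 on chromosome 9, Ccr3 differed by 0.12 at 70 nmol, and Ccr1 was not well above background.

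Of 14 further CC chemokines on the array, 9 were seen, and 7 were measured at 70 nmol, with a median of 0.042. Of these 7, 1 was higher by 2-fold or more (1.63% of all measured genes were) and 1 was lower by as much (1.08% of all). The higher one was Ccl4 (0.71 at 35 nmol). The lower one was Ccl24, eotaxin-2, which like Ccl11 acts on CCR3. Its level was 5.95 in the control, 6.49 at 35 nmol and 4.78 at 70 nmol, a difference of 0.55 and then -1.17, and another probe gave -1.15 at 70 nmol. Ccl17, which attracts T helper cells, differed by 0.88 and 0.71. At 35 nmol 0 of 8 measured differed 2-fold and the median was 0.38, where that of all genes was 0.039. Ccl19, seen at 35 nmol only, passed as a bound there (at least 2.04-fold higher). With bounds included, 1.92% of all genes were at least 2-fold higher at that dose.

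Of 14 other chemokine receptors, 8 were measured at both doses. None was 2-fold higher, and Ackr3, an atypical receptor that scavenges CXCL12, was 2-fold lower at 70 nmol (-0.77 at 35 nmol, -1.43 at 70 nmol). Ackr2, a scavenging receptor that takes up inflammatory CC chemokines including CCL2, differed by -0.027 and -0.65. Cx3cr1, the fractalkine receptor of monocytes and macrophages, differed by 0.46 and 0.59, and Ccr6 by -0.47 and -0.49. The receptor median was 0.024 at 70 nmol, near that of all genes (0.038).

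**Figure D4:**
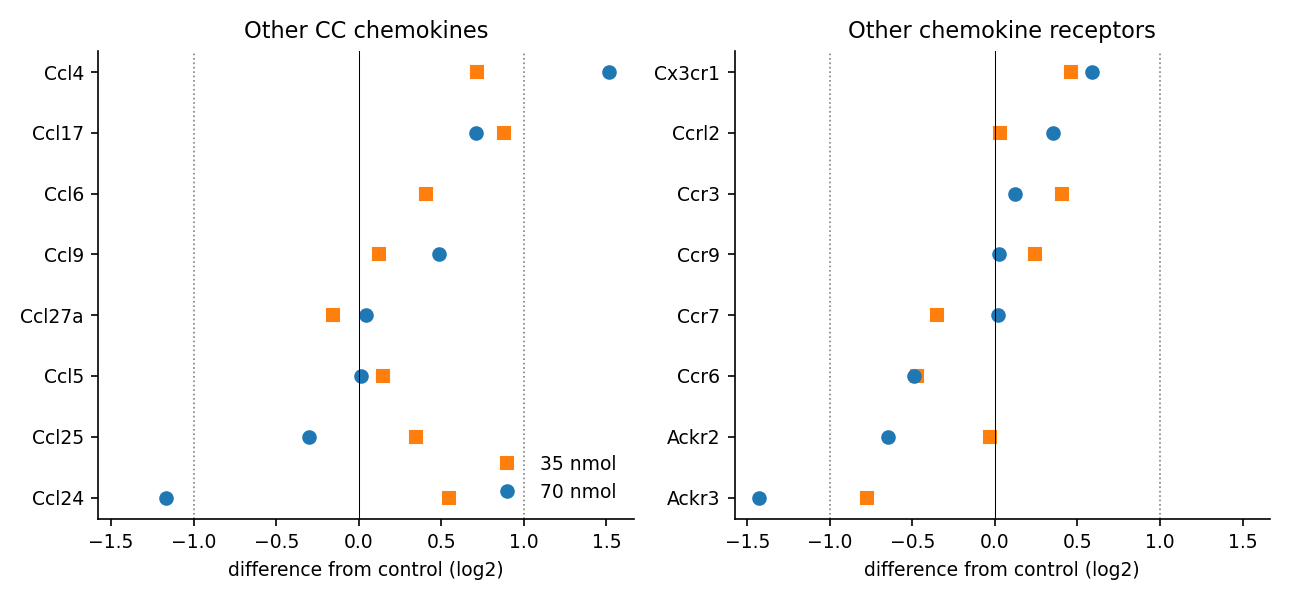
Differences from the control (horizontal axis, log2) of the other CC chemokines and other chemokine receptors seen on the control array (vertical axis) at 35 nmol (squares) and 70 nmol (circles), 1 array per dose; dotted lines mark 2-fold. Ccl4 (1.52) lies above and Ccl24 (-1.17) and Ackr3 (-1.43) lie below 2-fold at 70 nmol; Ccl6 has no circle because it was saturated.

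Genes that carry the signal of CCR2 inside the cell differed little. All 20 on the list were measured, none differed 2-fold at either dose, and the median was -0.057 at 70 nmol. Rgs2, which limits G protein signalling, differed by -0.65 (another probe by -1.10), Grk3, a receptor kinase, by 0.62, Arrb2, which helps to take up the receptor, by -0.46 and Pik3cg, the kinase activated by G protein beta-gamma subunits, by -0.43. At 70 nmol 1.63% of all measured genes were at least 2-fold higher. Of 30 measured inducers and regulators of these chemokines, 4 were at least 2-fold higher at 70 nmol and none lower, with a median of 0.26. These were Pdgfb (1.48), Pparg (1.30), the AP-1 subunit Fos (1.05) and Nr1h3, the liver X receptor alpha (1.03). Il4 was the single one of 28 to differ 2-fold at 35 nmol, by 1.57, and is named because of that value. At that dose 1.12% of all measured genes were at least 2-fold higher. Tnf, a strong inducer of Ccl2, differed by 0.34 and 0.90, Ifng by 0.43 and 0.026, and Nfkbia, a target of NF-kB, by 0.22 and 0.32.

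Genes with the most similar pair of differences were sought among 7436 genes at or above the median control level of seen probes (0.0021), by Euclidean distance over the 2 doses. Ccl2 and Ccl8 themselves lay below that level in the control, so genes as dim as they were not searched. For Ccl2 the nearest were Ltb4r1, the leukotriene B4 receptor (distance 0.040, differences 0.86 and 1.80), Ccl4 (0.28) and the interferon-inducible gene Ifi206 (0.31). Ccl8 had no gene so close among those searched. Nearest were the connective tissue genes Dcn (0.56) and Col3a1 (0.79), then Ltb4r1 (0.79). For Ccr2 they were Pnp (0.019), Rnf213 (0.031) and Slc2a6 (0.033). With only 3 arrays, such likeness rests on 2 differences that share a control.

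Markers of several cell types also differed between the arrays, and their part in these differences was not tested. The 11 macrophage markers were seen on every array. Of the monocyte list 15 of 16 were matched and seen on every array. Sums of linear levels leave out probes saturated on any array, a choice made after the values were seen. The macrophage list summed to 478, 483 and 429 at 0, 35 and 70 nmol without the saturated Lyz2 and Marco. With them it summed to 955, 1113 and 1033. Without them and Adgre1, the brightest left, it summed to 275, 274 and 286. Of 9 macrophage markers measured at 70 nmol, 1 was at least 2-fold higher, Mrc1 (1.59), and none was 2-fold lower. Fcgr1 differed by 0.76 and Adgre1 by -0.51 (another probe by -0.79). Without the saturated S100a4 and Lyz2 the monocyte list summed to 730, 782 and 783 at 0, 35 and 70 nmol, and with them to 1197, 1393 and 1377. Without these and Fn1, the brightest left, the monocyte list summed to 513, 568 and 600. At 70 nmol 3 of 13 measured were at least 2-fold higher, Ms4a4c (1.57), F13a1 (1.24) and Vcan (1.02), and the median was 0.42. Markers of interstitial-type macrophages summed to 108, 118 and 189, and without Pf4, the brightest, to 33.9, 34.2 and 101. At 70 nmol 8 of 9 were at least 2-fold higher, led by Gas6 (1.93), Cbr2 (1.90) and Folr2 (1.78), and at 35 nmol 0 of 9 were. Lyve1 counted as higher through its brightest probe (1.67), while another probe differed by -0.15. Fibroblast markers summed to 10.8, 12.2 and 35.9, or to 7.46, 7.42 and 22.1 without Dcn. At 70 nmol 5 of 8 measured were at least 2-fold higher, with Dcn at 2.06, Col3a1 at 1.95 and Fndc1 at 1.92. Large peritoneal macrophage markers summed to 673, 630 and 447 without the saturated Icam2, and to 906, 929 and 722 with it. Without Icam2 and Fn1 they summed to 456, 417 and 264. At 70 nmol 5 of 12 were at least 2-fold lower, with Alox15 at -1.65, Garnl3 at -1.30 and Nt5e at -1.15. Gata6 counted as lower through its brightest probe (-1.08), while its other probes differed by 0.56 and -1.02. F13a1, Fn1, Alox15, Mrc1, Cd14, Itgam and Lyz2 each stand in 2 of the lists.

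For eosinophils, the usual targets of Ccl11, the granule genes Epx, Prg2 and Prg3 were not well above background on any array, and the list summed to 81.7, 72.3 and 27.8. Alox15, which large macrophages also express, made up 79.3, 68.9 and 25.3 of these sums. The other eosinophil genes seen summed to 2.41, 3.36 and 2.55, and Ear1 differed by 1.46 at 35 nmol and 0.94 at 70 nmol. Mesothelial genes summed to 1.37, 1.67 and 1.77, and Upk3b, Upk1b, Lrrn4, Gpm6a and Muc16 were not well above background. Endothelial genes summed to 0.72, 0.58 and 0.63, and Cdh5, Kdr, Tek, Tie1 and Emcn were likewise not seen. Neutrophil genes summed to 10.8, 7.52 and 15.0, of which S100a9 made up 5.12, 2.16 and 10.4. The others summed to 5.65, 5.36 and 4.67. At 70 nmol 3 of 7 measured neutrophil genes were at least 2-fold higher (1.63% of all measured genes). Cxcr2 (-1.39) and Lcn2 (-1.29) were at least 2-fold lower (1.08% of all). Mast cell genes summed to 35.0, 23.0 and 13.7, dendritic cell genes to 3.13, 2.60 and 3.22, B cell genes to 261, 252 and 204, and T and NK cell genes to 24.7, 25.8 and 26.5. Liver genes summed to 21.9, 68.3 and 0.39, and red cell genes to 67.0, 11.6 and 35.3.

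The differences at 70 nmol kept their direction under all 8 other ways of obtaining a value, although a filter on dim probes, tried as no filter and as a stricter one, cannot move the value of a gene. Ccl8 lay between 1.83 and 2.60, Ccl2 between 1.33 and 1.80, Ccr2 between 0.40 and 0.76, Ccl12 between 1.78 and 3.58 and Ccl7 between 0.53 and 2.34. The lowest value came from normexp background correction with an offset of 50 for each of them but Ccr2, whose lowest came from spike-in scaling. For Ccl12 and Ccl7 these are differences from a control signal that was not well above background, so they show the effect of the setting and not a fold.

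**Figure D5:**
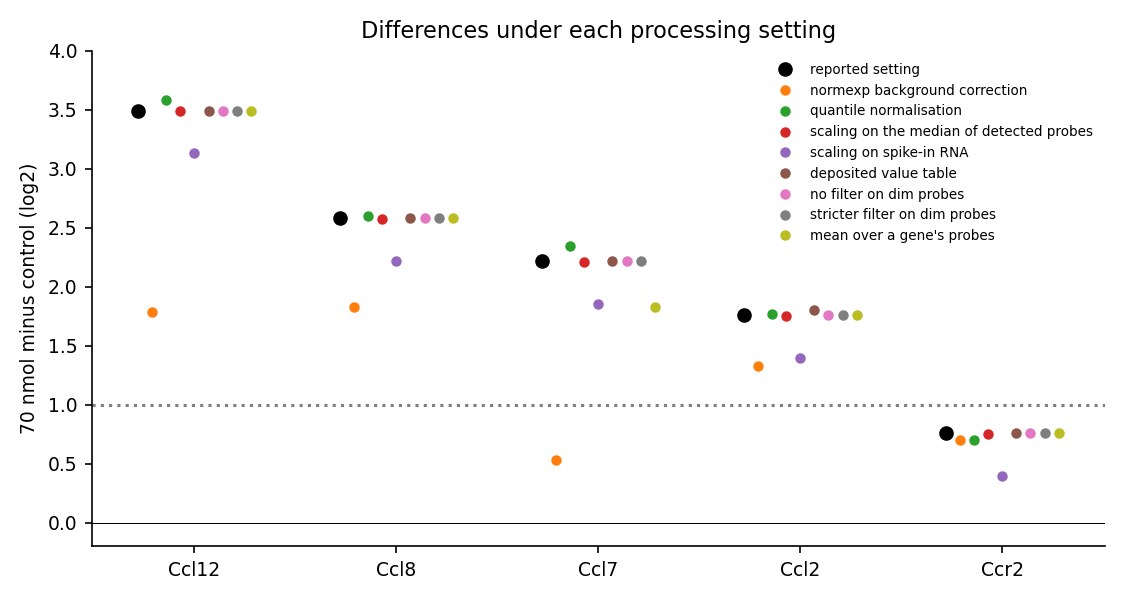
Difference between 70 nmol and the control (vertical axis, log2) for 5 genes (horizontal axis) under the reported setting (large black points) and 8 alternatives (small points); the dotted line marks 2-fold. Every point lies above 0; with normexp background correction Ccl7 falls to 0.53, under the line.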

How the data were processed

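RNA of 3 groups was hybridised to 1 Agilent array each (Cy3). Spot intensities were deposited as processed signals of Agilent Feature Extraction 10.5.1.1 (with spatial and multiplicative detrending), per the file headers. "Well above background" is its flag (multiple of 13), and probe positions are on mm8. The 3 arrays share a scan date, and whether they share a slide was not checked. With 1 array per group, an effect of the array or its position cannot be told apart from the group. The authors' deposited table holds log2 values, equal within 0.01 to the log2 processed signal minus 1 constant per array (8.00, 7.61 and 7.67) for at least 99.8% of probes well above background, with column medians of -3.60, -3.74 and -3.78, so its scale and direction are known.

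Here each array's 75th percentile over 43379 spots (8.07, 7.69 and 7.74) was subtracted from log2 processed signals, outlier spots were left out and spots of a probe averaged. Of 41174 probes, 24375 were named by accession through RefSeq (GRCm38.p6), 6301 by symbol, 2426 by synonym, and for 8072 the file's own name was used. A gene is its brightest probe seen on at least 1 array (14562 genes). It was measured in a comparison when well above background and not saturated on both arrays.

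The genes, gene lists and rule for named genes were chosen with earlier results of these data known. The rule took up to 4 genes of a pathway list and up to 3 of a marker list with the largest difference at 70 nmol, and the 3 most similar genes for each measured one. Genes of the lists that are named beyond it were added after their values were seen. These are Il4, Tnf, Ifng, Nfkbia, Ccl19, Lyve1, Gata6, Slfn5, Slfn2, the brightest gene of a list, neighbours of the group, and genes not seen. Probe sequences were not used here, so binding of close relatives to a probe was not tested. The promoters are RefSeq's. One gene is not reported here and was left out of its list. The steps were tested on simulated data. Alternatives are in the closing section. The software was limma 3.58.1 (R 4.3.3), and pandas 2.3.3, numpy 2.4.6 and matplotlib 3.10.9 (Python 3.11.15).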

Additional observations from a re-analysis of the deposited data

How the results depend on the processing

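With 1 array per group nothing could be left out, and the arrays limit every value to 3 RNA samples. No paired analysis was possible because each group has 1 array. The counts of the 6 genes at least 2-fold higher (2 at 70 nmol against control, 0 at 35 nmol and 3 between the doses) were the same with quantile normalisation, with detected-probe median or spike-in scaling, in the deposited table and when probes of a gene were averaged. The deposited table largely repeats the reported scaling, and averaging could move only Ccl7. Without a filter on dim probes, which lets in Ccl7 and Ccl12, they were 4 at 70 nmol and 1 at 35 nmol. The stricter filter leaves only Ccr2 to be measured, and gave 0 at 70 nmol and 0 between the doses. Normexp gave 1 between the doses, and the 1.5-fold threshold gave 2 at 35 nmol. Over all genes at 70 nmol, 204 were higher and 136 lower. The counts were 80 and 48 with normexp, 87 and 404 with spike-in scaling, 1130 and 1624 without the filter, 54 and 30 with the stricter filter, 696 and 480 at 1.5-fold and 49 and 22 at 3-fold. At 35 nmol (143 and 38) they were 55 and 10, 71 and 255, 1095 and 1397, 15 and 7, 377 and 245, and 51 and 12 in the same order, and the mean over probes gave 92 lower. Between the doses (114 and 89) normexp gave 39 and 20, no filter 1066 and 1161, the stricter filter 30 and 16, 1.5-fold 454 and 353 and 3-fold 21 and 19. Signals near background limit Ccl7, and Ccl12 in the control.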
